A study of Mus musculus with 30 samples.

Results

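A set of 10 genes of conventional dendritic cells (cDC) was followed across spleen cell types in mice with and without a deletion of Smc3. The genes were Ffar2, Nod1, Asb2, Rasgrp3, Tspan9, Abcb1a, Tgm2, P3h2, Pcsk5 and Ccdc192, 10 of the 32285 genes counted, and each symbol matched 1 row in every library. They had been chosen because their levels in cDC differed between the genotypes. Their genotype differences in cDC are therefore given as values without a test, and tests were made in the cell types that the choice did not use. The single-cell data comprised 4 droplet libraries of spleen cells depleted of red blood cells, 2 of genotype Smc3-cKO and 2 of genotype Smc3-WT. Libraries were made with a Chromium 3′ kit, which counts unique molecular identifiers (UMIs, 1 per captured RNA molecule) near the 3′ end of transcripts. The labels give genotype and tissue. The Cre driver behind the conditional deletion, the cells it acts in, the age of these mice and whether separate animals gave the 2 libraries of a genotype are not given in the sources used here, so p-values measure only the spread between libraries, which may be technical. The remaining 26 of the series' 30 samples (bulk RNA, ChIP and Hi-C of sorted cells) were not analysed here.

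Smc3 belongs to cohesin, a protein ring that holds DNA strands together and extrudes chromatin loops, which can bring distant enhancers near promoters. Conventional DC capture antigen and present it to T cells. Type 1 (cDC1) are known for cross-presentation to CD8 T cells, type 2 (cDC2) for priming CD4 T cells, and mature cDC carry antigen into T cell zones. The 10 genes fall into 4 roles. Ffar2, a receptor for short-chain fatty acids, and Nod1, a cytosolic sensor of bacterial peptidoglycan fragments, are sensors. Rasgrp3, a diacylglycerol-responsive exchange factor that activates Ras and Rap, Asb2, a SOCS-box protein that directs a cullin 5 ubiquitin ligase to filamins, and Tspan9, a tetraspanin, are signalling and membrane-organising proteins. Abcb1a encodes a P-glycoprotein that pumps drugs and lipids out of cells. Tgm2, a transglutaminase that crosslinks proteins, P3h2, a prolyl 3-hydroxylase of collagen, and Pcsk5, a proprotein convertase that cleaves precursors of secreted proteins, are enzymes. Ccdc192 encodes a coiled-coil protein to which no role is given here.

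Promoter windows of 4 genes are shown because these genes represent different patterns of level over the classes measured: Rasgrp3 is also a B cell gene, Ffar2 and Abcb1a are cDC2 genes, and Pcsk5 is a cDC1 gene. The series includes ChIP of PU.1, a myeloid transcription factor, so the windows were searched for letters of a PU.1-type motif, which were GAGGAA, the letters GGAAGT, and both merged as GAGGAAGT, on both strands. Capitals mark these motifs. On the opposite strand GAGGAA reads TTCCTC. Each window holds 300 bases, 250 before and 50 after a RefSeq transcript start on GRCm38.p6, written 5′ to 3′ in the direction of transcription.
Rasgrp3, chr17:75435655-75435954, plus strand: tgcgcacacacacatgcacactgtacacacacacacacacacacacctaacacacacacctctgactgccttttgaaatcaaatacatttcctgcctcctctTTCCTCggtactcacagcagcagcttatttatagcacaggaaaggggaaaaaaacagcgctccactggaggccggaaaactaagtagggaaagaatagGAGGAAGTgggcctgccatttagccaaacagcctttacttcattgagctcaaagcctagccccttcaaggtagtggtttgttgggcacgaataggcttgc
Ffar2, chr7:30821143-30821442, minus strand: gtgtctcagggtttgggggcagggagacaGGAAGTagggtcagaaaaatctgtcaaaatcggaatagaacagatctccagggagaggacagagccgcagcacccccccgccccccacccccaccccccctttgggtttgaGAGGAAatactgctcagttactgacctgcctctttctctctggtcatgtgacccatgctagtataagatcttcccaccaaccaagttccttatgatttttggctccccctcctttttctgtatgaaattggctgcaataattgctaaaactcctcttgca
Abcb1a, chr5:8566841-8567140, plus strand: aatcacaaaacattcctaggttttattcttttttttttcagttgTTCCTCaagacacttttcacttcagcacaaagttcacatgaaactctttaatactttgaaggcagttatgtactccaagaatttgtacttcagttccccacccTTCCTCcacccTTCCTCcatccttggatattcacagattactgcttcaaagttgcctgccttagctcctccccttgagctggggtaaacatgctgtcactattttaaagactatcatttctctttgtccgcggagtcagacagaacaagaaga
Pcsk5, chr19:17837583-17837882, minus strand: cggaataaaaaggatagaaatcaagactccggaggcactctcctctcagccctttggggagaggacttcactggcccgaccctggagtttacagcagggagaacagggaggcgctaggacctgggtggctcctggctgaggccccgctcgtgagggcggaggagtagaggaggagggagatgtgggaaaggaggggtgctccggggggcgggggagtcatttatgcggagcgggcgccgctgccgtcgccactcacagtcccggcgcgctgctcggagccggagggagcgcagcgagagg

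The Rasgrp3 window, the first of its 2 annotated starts by coordinate, held the merged motif GAGGAAGT, in which GAGGAA and GGAAGT overlap. It held a further GAGGAA on the opposite strand, and the window of the other Rasgrp3 start held none of the 3 motifs. The Ffar2 window, the second of its 4 annotated starts by coordinate, held GAGGAA and GGAAGT apart from each other. The window from 30821090 overlaps it and held GAGGAA alone. Those from 30821599 and 30823726 held none of the 3 motifs. The Abcb1a window held 3 copies of GAGGAA, all on the opposite strand, and the Pcsk5 window held none of the 3 motifs. RefSeq windows were present for 7 of the 10 genes, 16 windows in all, and Tgm2, P3h2 and Ccdc192 had none. GAGGAA occurred in 6 of the 16 windows and in 28.3% of all 32851 mouse promoter windows, GGAAGT in 6 of 16 and in 23.8% of all, and GAGGAAGT in 1 of 16 and in 3.20% of all. These are matches of letters in short windows and do not show binding.

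The 4 libraries held 40367056 to 51299056 UMIs in 9074 to 16096 barcodes, and 44803 cells were kept after filtering. Cells were grouped into classes from marker genes (names such as cDC2-like below are shortened to the class), without the 10 genes among those used for clustering. The cDC1, cDC2 and mature cDC classes of the Smc3-cKO libraries held 21, 51 and 25 cells in replicate 1 and 14, 155 and 18 in replicate 2. Those of the Smc3-WT libraries held 30, 122 and 74 cells in replicate 1 and 40, 178 and 36 in replicate 2. Defining markers were detected in the named classes. Xcr1, a chemokine receptor of cDC1, was at 599 and 499 CPM in Smc3-cKO cDC1, against 642 and 484 CPM in Smc3-WT cDC1. Clec9a in cDC1 and Sirpa in cDC2 also overlapped between the genotypes. Cd209a, a cDC2 marker, was at 613 and 620 CPM in Smc3-cKO cDC2, against 59.8 and 204 CPM in Smc3-WT cDC2. Zbtb46, a transcription factor that marks cDC, was at 201 and 237 CPM in all Smc3-cKO cDC, against 434 and 391 CPM in all Smc3-WT cDC. Adjusted p by edgeR was 0.242 for Cd209a and 0.356 for Zbtb46. Detection of markers thus does not show that a class was alike in both genotypes. Mitochondrial UMIs per barcode at the median were higher in both replicate 1 libraries, at 5.64% in Smc3-cKO and 7.51% in Smc3-WT. They were at 3.97% in Smc3-cKO replicate 2 and 3.25% in Smc3-WT replicate 2. Smc3-WT replicate 1 also stood apart from the other libraries with 1.03% of its cells called doublets, where 12.9% were expected from its loading. Smc3 itself was at 112 and 119 CPM in all Smc3-cKO cDC, against 80.8 and 99.6 CPM in all Smc3-WT cDC. Tags at the 3′ end do not check a deletion elsewhere in the gene, so the genotype rests on the labels. Each pair of libraries shared 36 to 61 barcode sequences. Levels below are counts per 1000000 UMIs of tested genes (CPM), summed over the cells of a class in each library and scaled by TMM, and changes are log2 ratios of Smc3-cKO to Smc3-WT, each with its standard error (SE) from edgeR.

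Over all cDC, the levels of all 10 genes were lower in both Smc3-cKO libraries than in both Smc3-WT libraries. The same order was met by 21% of the 9157 genes tested there, and nothing is read from the members' count because this contrast chose them. The label under which the genes were grouped calls them lost. Only Pcsk5 had no UMI in any Smc3-cKO cDC. Nod1 was at 46.6 and 69.8 CPM in Smc3-cKO cDC, against 118 and 98.1 CPM in Smc3-WT cDC, so its RNA was lower but present.

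The subtypes divided the genes. Among cDC alone, Ffar2, Abcb1a and Tgm2 were mainly genes of cDC2, and P3h2 and Pcsk5 of cDC1 and mature cDC. Asb2, Rasgrp3, Tspan9, Nod1 and Ccdc192 were at 33.2 CPM or more on average in every cDC subtype of Smc3-WT mice.

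In cDC2, 8 of the 10 genes were lower in both Smc3-cKO libraries than in both Smc3-WT libraries, an order shared by 20.2% of the 7981 genes tested in cDC2, and the same 8 passed the filter on low counts. Among the sensors, Ffar2 was at 59.0 and 58.7 CPM in Smc3-cKO cDC2 (18 and 46 UMIs), against 228 and 220 CPM in Smc3-WT cDC2 (145 and 178 UMIs). Both pairs were tight and far apart, with a log2 change of -1.93 (SE 0.27). Nod1 was at 68.9 and 85.5 CPM in Smc3-cKO cDC2, against 173 and 133 CPM in Smc3-WT cDC2. Its change of -0.96 (SE 0.29) was the smallest of the 8.

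Rasgrp3, the Ras and Rap activator, was at 23.0 and 26.8 CPM in Smc3-cKO cDC2, against 129 and 147 CPM in Smc3-WT cDC2. The groups were separated by a wide gap and the log2 change was -2.44 (SE 0.33). Asb2, the ubiquitin ligase subunit, was at 95.1 and 88.1 CPM in Smc3-cKO cDC2, against 277 and 345 CPM in Smc3-WT cDC2. Each pair was close together, and the change was -1.77 (SE 0.27). The tetraspanin Tspan9 was at 23.0 and 42.1 CPM in Smc3-cKO cDC2, against 139 and 121 CPM in Smc3-WT cDC2. Replicates spread by similar amounts in both genotypes, without overlap, and the change was -1.90 (SE 0.36).

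Abcb1a, the efflux pump, was at 26.2 and 29.4 CPM in Smc3-cKO cDC2, against 112 and 153 CPM in Smc3-WT cDC2. The change was -2.23 (SE 0.35), with no overlap. Tgm2, the crosslinking enzyme, was at 16.4 and 28.1 CPM in Smc3-cKO cDC2, against 48.8 and 141 CPM in Smc3-WT cDC2. The Smc3-WT libraries differed from each other more than for any other of the 8 genes, and the change of -2.0 had the widest SE, 0.57. Ccdc192 was at 49.2 and 56.2 CPM in Smc3-cKO cDC2, against 276 and 316 CPM in Smc3-WT cDC2. Its log2 change of -2.47 (SE 0.27) was the largest of the 8. P3h2 had 0 and 2 UMIs in Smc3-cKO cDC2 and 0 and 3 UMIs in Smc3-WT cDC2, and Pcsk5 had none in any cDC2 library, which allows up to 2.76 CPM in Smc3-cKO and 2.08 CPM in Smc3-WT cDC2 at 3 counts per genotype. These limits and all intervals given cover counting error only.

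**Figure D1:**
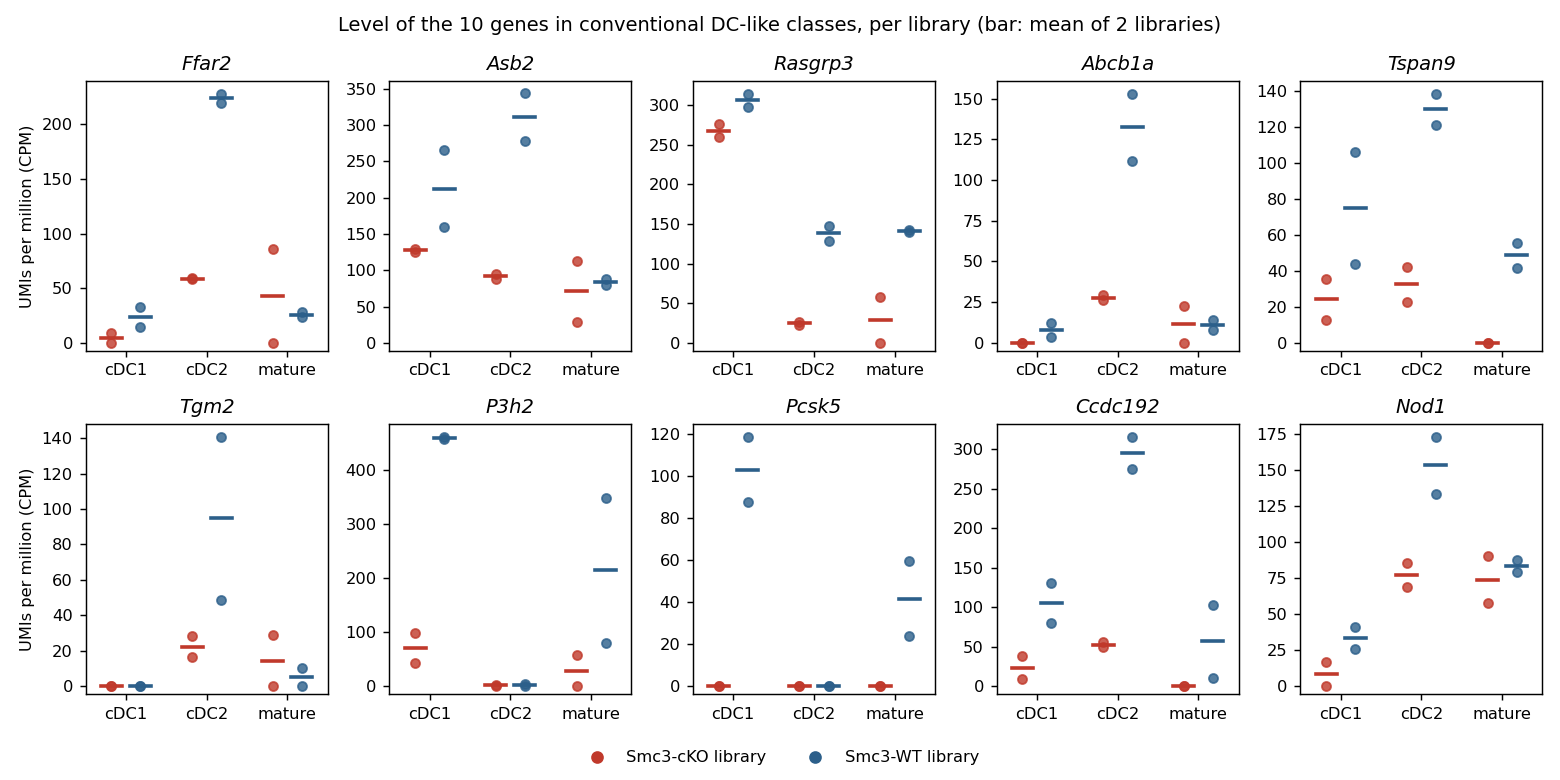
Level of each of the 10 genes (CPM, linear axis of its own per gene) in cDC1, cDC2 and mature cDC, 1 point per library and a bar at the mean of 2 libraries, Smc3-cKO left of Smc3-WT. In cDC2 the Smc3-cKO points lie below the Smc3-WT points for 8 genes, while P3h2 and Pcsk5 show this in cDC1 and mature cDC. The same order was met by 20.2% of all genes tested in cDC2, 16.8% in cDC1 and 23.5% in mature cDC.

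In cDC1, 9 of the 10 genes were lower in both Smc3-cKO libraries, an order shared by 16.8% of the 4845 genes tested, and 5 of the 10 passed the filter on low counts. P3h2, the collagen hydroxylase, was at 41.9 and 98.1 CPM in Smc3-cKO cDC1 (10 and 11 UMIs), against 458 and 462 CPM in Smc3-WT cDC1 (112 and 127 UMIs). The Smc3-WT libraries were nearly equal and the change was -2.82 (SE 0.47). Pcsk5, the convertase, had 0 UMIs in both Smc3-cKO libraries, against 29 and 24 UMIs in the Smc3-WT libraries, at 119 and 87.3 CPM. With 3 counts per genotype taken as the floor, it was at least 11.9-fold lower in Smc3-cKO cDC1, and at least 16.0-fold lower over all cDC.

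Ccdc192 was at 37.7 and 8.92 CPM in Smc3-cKO cDC1, against 131 and 80.0 CPM in Smc3-WT cDC1. The genotypes did not overlap and the change was -1.93 (SE 0.61). Rasgrp3 stood apart from its pattern in cDC2: it was at 260 and 276 CPM in Smc3-cKO cDC1, against 315 and 298 CPM in Smc3-WT cDC1. The change of -0.20 (SE 0.35) was smaller than its SE. Asb2 was at 130 and 125 CPM in Smc3-cKO cDC1, against 159 and 265 CPM in Smc3-WT cDC1, a change of -0.74 (SE 0.42) with the lower Smc3-WT library close to the Smc3-cKO pair.

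The other 5 genes rested on few UMIs in cDC1. Tspan9 had 3 and 4 UMIs in Smc3-cKO cDC1 and 26 and 12 in Smc3-WT cDC1. Nod1 had 4 and 0 UMIs in Smc3-cKO cDC1 and 10 and 7 in Smc3-WT cDC1. Ffar2 had 0 and 1 UMIs in Smc3-cKO cDC1 and 8 and 4 in Smc3-WT cDC1. Each was lower in both Smc3-cKO libraries by counts that leave its size uncertain. Abcb1a had no UMI in Smc3-cKO cDC1 and 3 and 1 in Smc3-WT cDC1, and Tgm2 had no UMI in any library, which allows up to 8.55 CPM in Smc3-cKO and 5.77 CPM in Smc3-WT cDC1 at 3 counts per genotype.

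Mature cDC held 25 and 18 cells in Smc3-cKO and 74 and 36 in Smc3-WT, so their levels are given as values alone. Of these, 18 and 6 Smc3-cKO cells and 26 and 3 Smc3-WT cells lay in a shallow cluster with a median of 1222 UMIs per cell. The values rest mainly on the deeper cluster, which held 7 and 12 Smc3-cKO cells and 48 and 33 Smc3-WT cells. P3h2 was at 0 and 57.5 CPM in Smc3-cKO mature cDC, against 349 and 79.4 CPM in Smc3-WT mature cDC. Pcsk5 had no UMI in Smc3-cKO mature cDC and 17 and 3 UMIs in Smc3-WT mature cDC, at 59.3 and 23.8 CPM. The limit in Smc3-cKO is 26.4 CPM at 3 counts, above the lower Smc3-WT library, so no bound on a fold is given. The Smc3-WT replicates differed several-fold for P3h2. Rasgrp3 was at 0 and 57.5 CPM in Smc3-cKO mature cDC, against 140 and 143 CPM in Smc3-WT mature cDC. Tspan9 and Ccdc192 had no UMI in Smc3-cKO mature cDC, against 41.9 and 55.6 CPM of Tspan9 and 10.5 and 103 CPM of Ccdc192 in Smc3-WT mature cDC. The levels of Ffar2, Asb2, Abcb1a, Tgm2 and Nod1 overlapped between the genotypes. The other 5 genes were lower in both Smc3-cKO libraries, an order shared by 23.5% of all genes that passed the filter on low counts in mature cDC. Only 1 of the 10 genes passed that filter there.

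The cDC2 class was made of clusters of 2 kinds, and their mixture differed between the libraries. Clusters led by Dscam and Frmd5 held 15 and 47 of the cDC2 cells of the Smc3-cKO libraries, against 102 and 130 of those of the Smc3-WT libraries. A cluster led by Cd209a, a lectin receptor, held 36 and 108 Smc3-cKO cells, against 20 and 48 Smc3-WT cells. Dscam and Frmd5 themselves fell in Smc3-cKO cDC2, so the genotype entered the division and these cell numbers are no result. The levels within each kind were therefore read apart, as CPM over all UMIs of the cells.

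Within the Dscam-led clusters, the same 8 genes were lower in both Smc3-cKO libraries, an order shared by 17.1% of the 6607 genes that passed the filter on low counts there. Ccdc192 was at 59.9 and 64.2 CPM in Smc3-cKO Dscam-led cells, against 322 and 337 CPM in Smc3-WT Dscam-led cells. Its change of -2.41 (SE 0.32) there was close to the -2.47 in the whole class. Ffar2 was at 68.4 and 107 CPM in Smc3-cKO Dscam-led cells, against 268 and 247 CPM in Smc3-WT Dscam-led cells, a change of -1.49 (SE 0.32). For Rasgrp3 the change was -1.72 (SE 0.39) within these clusters, against -2.44 in the whole class. Changes of Abcb1a (-1.56), Tspan9 (-1.14), Asb2 (-1.31) and Tgm2 (-1.62) were also smaller in size there than in the whole class, and that of Nod1 (-0.92) was nearly the same.

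Within the Cd209a-led cluster, 7 of the 8 genes averaged lower than in the Dscam-led clusters in both genotypes, Nod1 being the exception. Of the 10 genes, only Asb2 and Nod1 passed the filter on low counts there, and 17% of the 3846 genes that passed it were lower in both Smc3-cKO libraries. Asb2 was at 54.5 and 58.4 CPM in Smc3-cKO Cd209a-led cells, against 156 and 157 CPM in Smc3-WT Cd209a-led cells. Rasgrp3 was at 0 and 16.7 CPM in Smc3-cKO Cd209a-led cells, against 44.6 and 56.5 CPM in Smc3-WT Cd209a-led cells. Both were lower in both Smc3-cKO libraries, as were Abcb1a and Tgm2, which makes 4 of the 10. Whether the cluster kinds differ in this was not tested. Ffar2 overlapped between the genotypes, at 49.6 and 22.9 CPM in Smc3-cKO Cd209a-led cells and 22.3 and 43.9 CPM in Smc3-WT Cd209a-led cells. Ccdc192 overlapped too, at 39.6 and 48.0 CPM in Smc3-cKO Cd209a-led cells and 33.4 and 144 CPM in Smc3-WT Cd209a-led cells. The Smc3-WT values there rest on 20 and 48 cells.

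**Figure D2:**
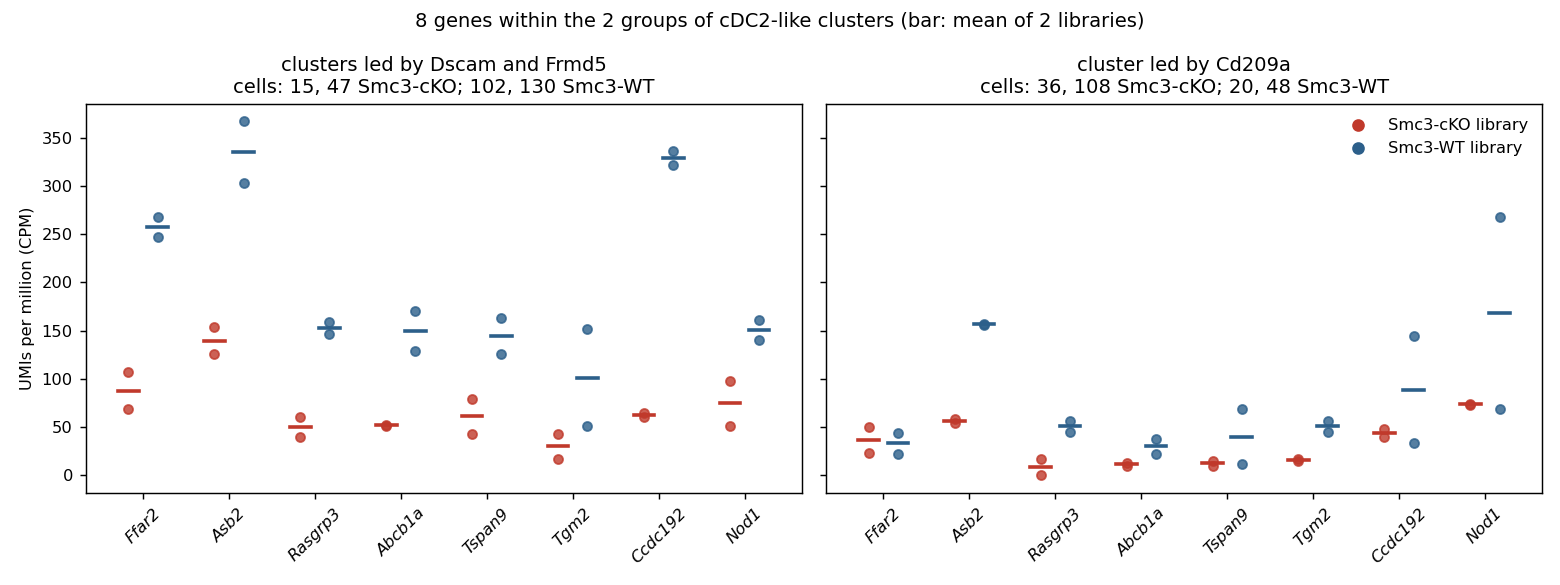
Level (CPM over all UMIs, linear axis) of the 8 genes measured in cDC2, in the clusters led by Dscam and Frmd5 on the left and the cluster led by Cd209a on the right, 1 point per library and a bar at the mean, Smc3-cKO left of Smc3-WT. All 8 are separated by genotype in the Dscam-led clusters, where 17.1% of genes had the same order, and Asb2, Rasgrp3, Abcb1a and Tgm2 in the Cd209a-led cluster, where 17% had it.

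Markers of several other cell types moved with genotype in the cDC2 sums. Marker sums here and below are CPM over all UMIs of the class or cluster, without TMM scaling. The summed level of 10 classical monocyte markers was 2991 and 2877 CPM in Smc3-cKO cDC2, against 1262 and 1702 CPM in Smc3-WT cDC2, all 10 being detected. The 12 cDC2 markers summed to 1968 and 2171 CPM in Smc3-cKO cDC2, against 1241 and 1459 CPM in Smc3-WT cDC2. The 12 cDC1 markers summed to 1023 and 1135 CPM in Smc3-cKO cDC2, against 1780 and 1918 CPM in Smc3-WT cDC2, with 11 detected and Cd207 at 0. Asb2, Rasgrp3, Tspan9 and Ccdc192, which were lower in Smc3-cKO cDC2 as well, are also expressed in cDC1. The 7 T cell markers summed to 28.2 and 52.1 CPM in Smc3-cKO cDC2, against 226 and 114 CPM in Smc3-WT cDC2, and the 10 NK cell markers to 12.6 and 13.6 CPM, against 261 and 36.4 CPM. The 10 B cell markers overlapped between the genotypes in cDC2, at 1384 and 684 CPM in Smc3-cKO and 1785 and 1115 CPM in Smc3-WT. In cDC1 they summed to 591 and 89.2 CPM in Smc3-cKO, against 1375 and 1701 CPM in Smc3-WT, and Rasgrp3 is also expressed in B cells. The part of these markers in the lower levels of the 8 genes, and in Rasgrp3 of cDC1, was not tested. Erythroid markers followed the replicate number rather than the genotype, at 7325 and 8.68 CPM in Smc3-cKO cDC2, against 3948 and 71.7 CPM in Smc3-WT cDC2.

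Counted per cell, fewer Smc3-cKO cDC2 held RNA of these genes. Asb2 was detected in 27.5% and 23.9% of Smc3-cKO cDC2 cells, against 52.5% and 63.5% of Smc3-WT cDC2 cells. Exact 95% binomial intervals were 15.9 to 41.7% and 17.4 to 31.4% in Smc3-cKO, against 43.2 to 61.6% and 56.0 to 70.6% in Smc3-WT. After thinning every cell to 2000 UMIs, which left out 3 and 11 Smc3-cKO cells and 0 and 22 Smc3-WT cells, the shares were 12.5% and 12.5% in Smc3-cKO, against 31.1% and 43.6% in Smc3-WT. In plasmacytoid DC (pDC), a class where Asb2 is low, 1.10% and 0% of Smc3-cKO cells and 2.44% and 3.17% of Smc3-WT cells had an Asb2 UMI, and the cDC2 shares lie above this background. Median depth was 6209 and 4967 UMIs per cell in Smc3-cKO cDC2, against 4886 and 4682 in Smc3-WT cDC2, and 6210 and 4542 in Smc3-cKO pDC, against 4164 and 4942 in Smc3-WT pDC. The 0 of 47 pDC allows a share of up to 7.55% by the exact interval.

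Ffar2 was detected in 23.5% and 18.1% of Smc3-cKO cDC2 cells, against 50.8% and 50.6% of Smc3-WT cDC2 cells, and after thinning in 4.17% and 9.03%, against 30.3% and 32.1%. Ccdc192 was detected in 15.7% and 9.03% of Smc3-cKO cDC2 cells, against 32.8% and 41.0% of Smc3-WT cDC2 cells, and after thinning in 6.25% and 5.56%, against 23.8% and 33.3%. Both shares were lower in each Smc3-cKO library at equal depth. In pDC, Ffar2 had a UMI in 0% and 0% of Smc3-cKO cells and in 2.44% and 1.59% of Smc3-WT cells, and Ccdc192 in none, where 0 of 91 to 0 of 41 cells allow shares of up to 3.97 to 8.60% by the exact interval. Cells with UMIs of 3 or more of the 10 genes made up 15.7% and 19.4% of Smc3-cKO cDC2, against 61.5% and 59.6% of Smc3-WT cDC2. After thinning they made up 8.33% and 2.78% in Smc3-cKO, against 36.9% and 40.4% in Smc3-WT. In pDC such cells made up 0% and 0% in Smc3-cKO, against 0% and 1.59% in Smc3-WT, and none were left after thinning. The median cDC2 cell held RNA of 1 and 1 of the genes in the Smc3-cKO libraries, against 3 and 4 in the Smc3-WT libraries.

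Across the 10 classes measured, most of the genes had their highest Smc3-WT level in a cDC class, and nothing is read from this because cDC values chose the genes. Neutrophils, red pulp macrophages, basophils, plasma cells and erythroid cells were named too, but the genes were not measured in them. The order below is over means of 2 libraries in the 10 classes and describes Smc3-WT cells. Ffar2 stood at 224 ± 6.02 CPM (SD, n = 2) in Smc3-WT cDC2, and the next classes, mature cDC, classical monocytes and cDC1, lay between 23.6 and 25.9 CPM on average and did not differ beyond their spread. Asb2 stood at 311 ± 47.7 CPM in Smc3-WT cDC2 (SD, n = 2), then 212 ± 75 CPM in cDC1 and 83.3 ± 5.51 CPM in mature cDC. Its cDC2 and cDC1 libraries did not overlap but lay close to each other. Rasgrp3 was highest in Smc3-WT cDC1, at 306 ± 11.7 CPM (SD, n = 2), followed by B cells at 240 ± 33.5 CPM, and mature cDC and cDC2 overlapped below them.

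Abcb1a was a gene of cDC2 and of lymphocytes. It stood at 132 ± 29.2 CPM in Smc3-WT cDC2 (SD, n = 2), while NK and CD8 T cells overlapped at 47.4 ± 1.88 and 46.0 ± 10.9 CPM and CD4 T cells followed at 30.6 ± 1.72 CPM. Tspan9 was at 130 ± 12.4 CPM in Smc3-WT cDC2 (SD, n = 2), with cDC1 and mature cDC overlapping below. P3h2 was at 460 ± 2.84 CPM in Smc3-WT cDC1 (SD, n = 2) and 214 ± 191 CPM in mature cDC, and Pcsk5 at 103 ± 22.1 and 41.6 ± 25.1 CPM in the same classes. Both were at or below 5.75 CPM on average in every other Smc3-WT class measured.

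Ccdc192, Tgm2 and Nod1 had a further site of expression in monocytes. Ccdc192 was at 296 ± 137 CPM in Smc3-WT nonclassical monocytes and 296 ± 28.7 CPM in cDC2 (SD, n = 2 each), 2 levels that overlapped. Tgm2 was at 94.8 ± 65.0 CPM in Smc3-WT cDC2 and 47.3 ± 31.4 CPM in nonclassical monocytes (SD, n = 2 each), again with overlap. Nod1 had RNA in all 10 classes, with overlapping neighbours from nonclassical monocytes at 199 ± 91.2 CPM (SD, n = 2) through classical monocytes and cDC2 to NK cells at 141 ± 37.0 CPM. In pDC no gene exceeded 17.7 CPM on average in Smc3-WT cells, and P3h2, Pcsk5 and Ccdc192 had no UMI there, with limits of 4.09 CPM in Smc3-cKO and 6.74 CPM in Smc3-WT pDC at 3 counts per genotype.

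**Figure D3:**
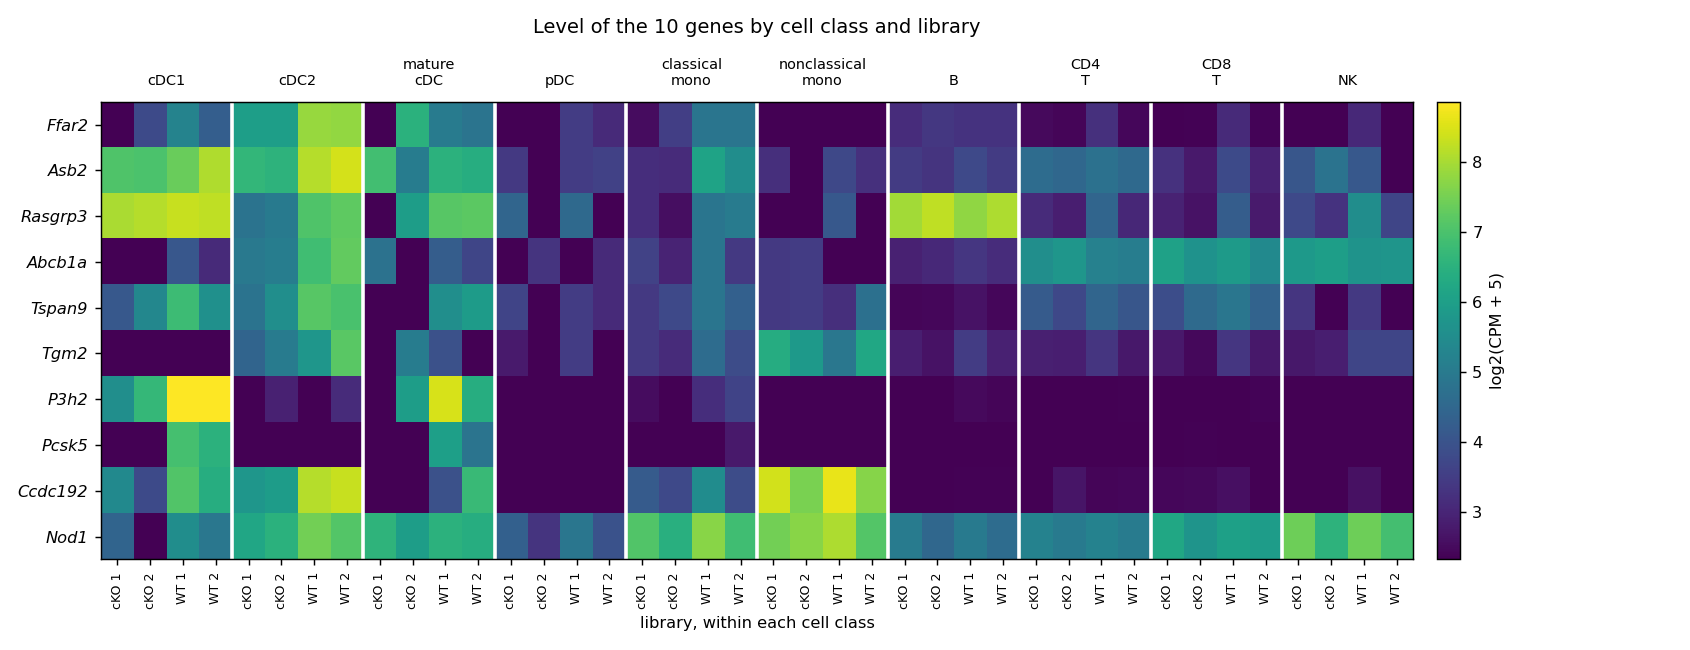
Level of each gene as log2(CPM + 5), shown by colour from dark (low) to yellow (high), with 1 column per library in each of 10 cell classes and the 2 Smc3-cKO libraries left of the 2 Smc3-WT libraries. The cDC1 and cDC2 columns are mostly brighter in Smc3-WT, while Rasgrp3 in B cells, Abcb1a in T and NK cells and Ccdc192 in nonclassical monocytes are bright in both genotypes.

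Outside cDC, the genes had not been chosen on their values, and their genotype differences were tested. Of 70 pairs of a gene and a class (10 genes in pDC, classical and nonclassical monocytes, B, CD4 T, CD8 T and NK cells), 28 passed the filter on low counts. The quasi-likelihood test of edgeR was used with genotype only, adjusted by Benjamini-Hochberg over all genes of the class. Of the 28, 0 passed an adjusted p of 0.05 and 5 had an unadjusted p below 0.05 by edgeR, and DESeq2 called 1. Of the 5, 4 lay in classical monocytes and passed the filter through the Smc3-WT libraries, where they were higher. Their p-values are therefore not read as support for a change. A fit with a replicate block is given in a later section. The share of all genes called was 0.0614% in classical monocytes, 0.0198% in nonclassical monocytes, 0.0555% in NK cells and 0% in pDC, B, CD4 T and CD8 T cells. With 2 libraries per genotype, a change that was not called does not show equal levels.

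In classical monocytes, Asb2, Rasgrp3, Ffar2 and Tspan9 rested on few UMIs and passed the filter on low counts through the Smc3-WT libraries, where they were higher. Asb2 was at 3.97 and 3.79 CPM in Smc3-cKO classical monocytes (5 and 4 UMIs), against 64.2 and 41.2 CPM in Smc3-WT classical monocytes (16 and 22 UMIs). Its log2 change was -3.65 (SE 0.56), with adjusted p = 0.0609 by edgeR and 0.0261 by DESeq2, so it did not pass the threshold by edgeR. Rasgrp3 was at 3.97 and 0.947 CPM in Smc3-cKO classical monocytes, against 24.1 and 28.1 CPM in Smc3-WT classical monocytes. Ffar2 was at 0.795 and 6.63 CPM in Smc3-cKO classical monocytes, against 24.1 and 24.3 CPM in Smc3-WT classical monocytes. Neither passed the threshold by edgeR, with changes of -3.29 (SE 0.70, adjusted p = 0.206) for Rasgrp3 and -2.73 (SE 0.78, adjusted p = 0.397) for Ffar2, both lower in 2 of 2 Smc3-cKO libraries. Tspan9 changed by -1.38 (SE 0.62, adjusted p = 0.716 by edgeR), and Nod1 and Ccdc192 overlapped between the genotypes.

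Most UMIs of Ffar2, Asb2, Rasgrp3, Abcb1a and Tspan9 in classical monocytes lay in 1 cluster, led by Retnla and Sdk1, with 16 and 5 Smc3-cKO cells and 5 and 28 Smc3-WT cells. The 7 shared cDC markers summed to 2634 and 1587 CPM in that cluster in Smc3-cKO, against 1935 and 2482 CPM in Smc3-WT. In the whole class they summed to 1828 and 1158 CPM in Smc3-cKO, against 1517 and 1556 CPM in Smc3-WT, all 7 being detected. Among the cluster's 10 leading genes, Fn1 and F13a1 are monocyte markers, while Pclaf and Kif15 belong to dividing cells. The 10 classical monocyte markers summed to 5143 and 1970 CPM in the cluster in Smc3-cKO, against 4372 and 2629 CPM in Smc3-WT, and the cycling markers to 3626 and 3812 CPM, against 3097 and 3058 CPM. The 13 pDC markers summed to 1761 and 1587 CPM in the cluster in Smc3-cKO, against 932 and 4271 CPM in Smc3-WT, so in Smc3-WT replicate 2 they exceeded those of monocytes and the cluster's name is uncertain. Within the cluster Ffar2 overlapped between the genotypes, at 5.19 and 128 CPM in Smc3-cKO, against 71.7 and 73.5 CPM in Smc3-WT. Asb2 was lower in both Smc3-cKO libraries there, at 26.0 and 36.5 CPM, against 186 and 129 CPM in Smc3-WT. Rasgrp3, Tspan9 and Tgm2 had the same order, and the other 6 genes overlapped. These values rest on few UMIs and were not tested, and the share of all genes with this order in the cluster was not determined. The 12 cDC1 markers summed to 1538 and 584 CPM in the cluster in Smc3-cKO, against 1133 and 1826 CPM in Smc3-WT. In the whole class they summed to 758 and 700 CPM in Smc3-cKO, against 819 and 908 CPM in Smc3-WT. There 11 of the 12 were detected and Xcr1 was at 0. Without the cluster, Asb2, Rasgrp3, Ffar2 and Tspan9 no longer passed the filter on low counts and Nod1 remained. The part of cDC, pDC and dividing cells in the result was not tested.

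In nonclassical monocytes, the other main site of Ccdc192, Nod1 and Tgm2, the genotypes overlapped for all 3 genes. Ccdc192 was at 338 and 181 CPM in Smc3-cKO nonclassical monocytes, against 393 and 200 CPM in Smc3-WT nonclassical monocytes, a change of -0.16 (SE 0.36, adjusted p = 0.998 by edgeR). Nod1 was at 174 and 202 CPM in Smc3-cKO nonclassical monocytes, against 263 and 135 CPM in Smc3-WT nonclassical monocytes. Tgm2 was at 77.9 and 52.1 CPM in Smc3-cKO nonclassical monocytes, against 25.1 and 69.4 CPM in Smc3-WT nonclassical monocytes, with a change of 0.51 (SE 0.48). For Ccdc192 and Nod1, replicates of a genotype differed by more than the means of the genotypes. The difference between these changes and those in cDC2 was not tested, since the cDC2 values chose the genes.

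In B cells Rasgrp3 was well measured and its genotypes overlapped. It was at 244 and 295 CPM in Smc3-cKO B cells (4154 and 6464 UMIs), against 217 and 264 CPM in Smc3-WT B cells (4153 and 6157 UMIs). The change was 0.17 (SE 0.19, adjusted p = 1.0 by edgeR). Ffar2, Asb2, Abcb1a and Tgm2 stayed at or below 8.71 CPM in every B cell library and Nod1 lay between 17.6 and 28.3 CPM, none of them past the threshold.

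The order of Abcb1a differed among lymphocytes. In B cells it was at 2.53 and 3.42 CPM in Smc3-cKO, against 5.27 and 3.90 CPM in Smc3-WT, the order seen in cDC2, with a change of -0.62 (SE 0.35, adjusted p = 1.0 by edgeR). In CD4 T cells it was at 42.1 and 48.9 CPM in Smc3-cKO, against 31.8 and 29.4 CPM in Smc3-WT. Both Smc3-cKO libraries were higher, by a log2 change of 0.58 (SE 0.20), with an unadjusted p of 0.0260 and an adjusted p of 1.0 by edgeR. In NK cells it was at 52.7 and 58.3 CPM in Smc3-cKO, against 46.0 and 48.7 CPM in Smc3-WT, a change of 0.23 (SE 0.33). In CD8 T cells the genotypes overlapped, at 62.6 and 45.8 CPM in Smc3-cKO, against 53.7 and 38.3 CPM in Smc3-WT.

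Rasgrp3 in T cells rested on 1 library. In CD4 T cells it was at 3.74 and 2.29 CPM in Smc3-cKO, against 17 and 3.23 CPM in Smc3-WT, and in CD8 T cells at 2.76 and 1.24 CPM in Smc3-cKO, against 14.1 and 1.95 CPM in Smc3-WT. Only Smc3-WT replicate 1 was high in both. The changes of -1.79 (SE 0.83) and -2.10 (SE 1.03) became -0.16 and -0.12 without that library. Without Smc3-WT replicate 2, the CD8 T change was -3.0. The 10 B cell markers summed to 201 and 152 CPM in Smc3-cKO CD4 T cells, against 920 and 206 CPM in Smc3-WT CD4 T cells, highest in the same library, and all 10 were detected. Their part in the Rasgrp3 value was not tested.

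**Figure D4:**
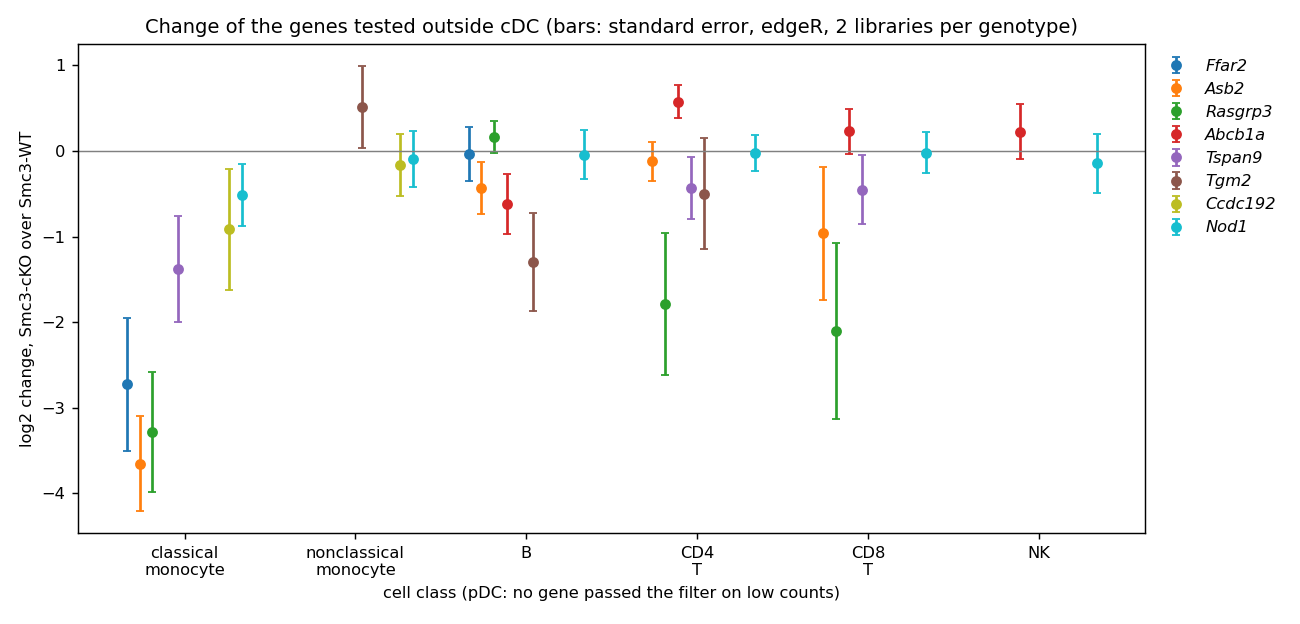
Log2 change of Smc3-cKO over Smc3-WT for the 28 tested pairs of gene and class outside cDC, coloured by gene, with bars of 1 SE on each side. Asb2, Rasgrp3 and Ffar2 in classical monocytes lie between -3.65 and -2.73, Rasgrp3 in T cells lies low with wide bars, and Abcb1a in T and NK cells lies above 0.

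Genes related to the 10 were followed in 9 lists of 196 genes, the 10 left out. In cDC2, 128 of the 196 were tested, and 0 rose and 0 fell by edgeR at an adjusted p of 0.05, with 12 at an unadjusted p below 0.05 and 0 called by DESeq2. The share of all genes called in cDC2 was 0.15%. In cDC1, 82 were tested with 0 called, 4 at an unadjusted p below 0.05 and 0 by DESeq2, and in all cDC 135 were tested with 0 called, 13 at an unadjusted p below 0.05 and 0 by DESeq2, where 0% and 0.186% of all genes were called. The median log2 change of the listed genes was -0.04 in cDC2, against 0.02 for all genes tested there.

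Of 22 receptors and G protein components in the list of Ffar2, 14 were tested in cDC2. Gnai2, the inhibitory G protein subunit to which Ffar2 couples, was at 515 and 534 CPM in Smc3-cKO cDC2, against 176 and 411 CPM in Smc3-WT cDC2, a change of 0.83 (SE 0.41) with adjusted p = 0.696 by edgeR. In the list of Rasgrp3, 29 of 31 exchange factors and kinases were tested. Prkcb, a diacylglycerol-responsive kinase, was at 876 and 1077 CPM in Smc3-cKO cDC2, against 2200 and 1681 CPM in Smc3-WT cDC2. The change of -0.99 (SE 0.39) did not pass the threshold (adjusted p = 0.584 by edgeR). In the list of Asb2, 16 of 30 genes were tested.

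Of 30 ABC transporters, 22 were tested in cDC2, of 24 tetraspanins 13, of 31 genes of NOD and NLR signalling 26, of 13 collagen hydroxylases and partners 4, and of 8 proprotein convertases 3. None passed the threshold. Furin, a widely expressed convertase, was at 23.0 and 49.8 CPM in Smc3-cKO cDC2, against 20.5 and 23.5 CPM in Smc3-WT cDC2 (adjusted p = 0.741 by edgeR). Among 7 transglutaminases, F13a1 alone was tested. It was at 177 and 75.3 CPM in Smc3-cKO cDC2, against 55.1 and 39.5 CPM in Smc3-WT cDC2, opposite in order to Tgm2, with a change of 1.36 (SE 0.46, adjusted p = 0.488 by edgeR). F13a1 is also 1 of the 10 classical monocyte markers whose sum was higher in Smc3-cKO cDC2.

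Because cohesin acts along chromosomes, genes next to the 10 were examined. Within 500 kb of the 10 gene bodies, on GRCm38.p6, lay 165 other genes, of which 44 were tested in cDC2. Of the 44, 1 fell and 0 rose by edgeR, where 0.15% of all genes tested were called, 8 had an unadjusted p below 0.05, 5 of them lower, and DESeq2 called 1. The gene that fell was Adam22, a surface protein of the ADAM family without protease activity, 199 kb from Abcb1a on chromosome 5. It was at 42.6 and 38.3 CPM in Smc3-cKO cDC2, against 247 and 272 CPM in Smc3-WT cDC2. The groups were far apart, with a change of -2.69 (SE 0.28) and adjusted p = 0.0252 by edgeR. Leaving out Smc3-cKO replicate 1 gave an adjusted p of 0.148, and leaving out Smc3-cKO replicate 2 gave 0.355. In cDC1, where Abcb1a itself was near 0, Adam22 was at 12.6 and 17.8 CPM in Smc3-cKO, against 257 and 200 CPM in Smc3-WT, with a change of -3.93 (SE 0.53) and adjusted p = 0.0730 by edgeR.

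Other genes beside Abcb1a differed from each other. Rundc3b, whose body on chromosome 5 from 8490336 to 8623084 overlaps that of Abcb1a from 8567091 to 8748575, was at 16.4 and 21.7 CPM in Smc3-cKO cDC2, against 99.2 and 87.7 CPM in Smc3-WT cDC2. Its change of -2.23 (SE 0.37) did not pass the threshold (adjusted p = 0.105 by edgeR). How reads in the shared stretch were divided is not given in the sources used here, so the levels of Rundc3b and Abcb1a are uncertain to that extent. Abcb1b, the close paralog of Abcb1a 49.6 kb away, had the opposite order, at 85.3 and 88.1 CPM in Smc3-cKO cDC2, against 56.7 and 40.8 CPM in Smc3-WT cDC2. Its change of 0.84 (SE 0.33) did not pass the threshold (adjusted p = 0.590 by edgeR). Reads of Abcb1a and Abcb1b can be divided wrongly between paralogs, and the opposite order of their levels is given with that limit.

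**Figure D5:**
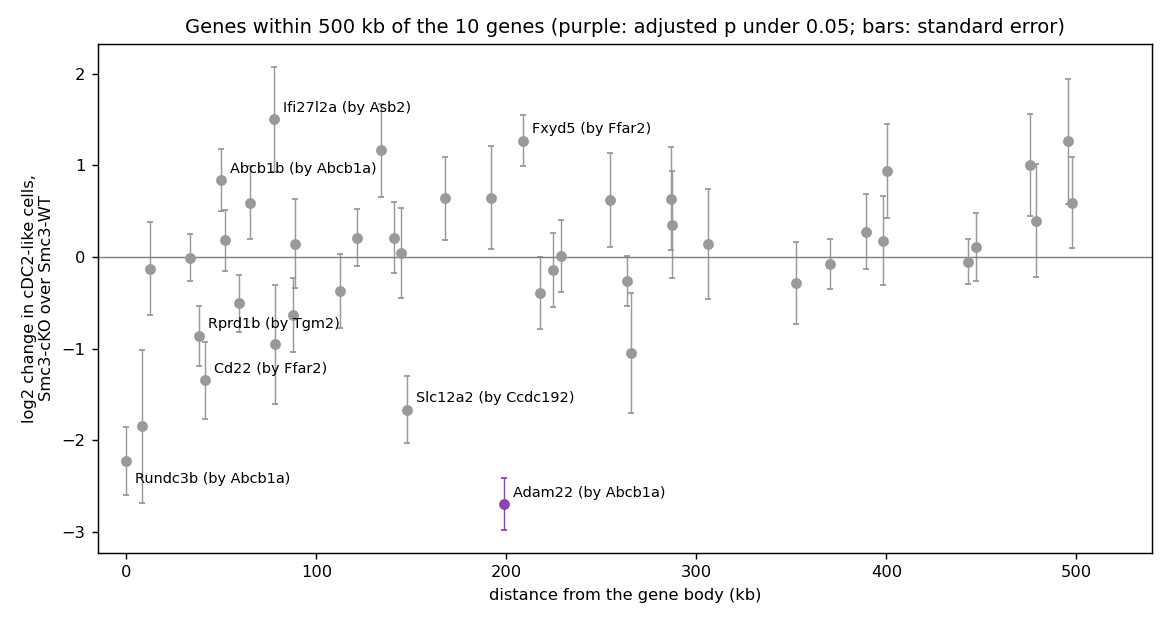
Log2 change in cDC2 (Smc3-cKO over Smc3-WT) of each of the 44 tested genes within 500 kb of one of the 10 genes, against its distance from that gene's body in kb (0 for an overlap), with bars of 1 SE on each side. Adam22, in purple at 199 kb from Abcb1a, is the 1 gene with an adjusted p under 0.05, and the others lie on both sides of 0.

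The genes whose levels most resembled each of the 10 were found over 40 sums (10 classes in 4 libraries) by Pearson's r of log2(CPM + 5), among 10943 genes that reached 20 CPM in some sum. These are descriptions, since the sums share libraries and classes. Among the genes most like Ffar2 were Stra6l (r = 0.90) and Mmp12 (0.87). Asb2 was most like Spint1 (r = 0.90), Zbtb46 (0.89), a transcription factor that marks cDC, and Gpr34 (0.87). Zbtb46 was itself at 201 and 237 CPM in all Smc3-cKO cDC, against 434 and 391 CPM in all Smc3-WT cDC. Rasgrp3 was most like H2-Ob (r = 0.88), Baz1a and Gm20513 (0.88 each). P3h2 was most like Htr7 (r = 0.92), Morn1 (0.90) and Clec4b2 (0.89), and Pcsk5 like Chst9 (0.90), Dkk3 (0.88) and Homer2 (0.86).

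Ccdc192 was most like Gm35853, Slc12a2 (r = 0.88 each) and Tmem51os1 (0.86). Slc12a2, a sodium, potassium and chloride cotransporter, lies 147 kb from Ccdc192 and was at 49.2 and 115 CPM in Smc3-cKO cDC2, against 288 and 263 CPM in Smc3-WT cDC2 (log2 change -1.67, SE 0.37, adjusted p = 0.237 by edgeR). The likeness was measured over sums that include these cDC2 levels, and Slc12a2 was named after its values were seen. Abcb1a was most like Rundc3b (r = 0.80), Cd101 and Ggt5 (0.79 each), the first being the gene it overlaps. Tspan9 was most like 9530059O14Rik (r = 0.78), Adgra2 (0.77) and Stra6l (0.74), Tgm2 like Clec4a4 (0.81), Il31ra (0.80) and 2900026A02Rik (0.79), and Nod1 like Itga4, Fcho2 (0.81 each) and Neurl3 (0.79). Among the 10 themselves, P3h2 and Pcsk5 had the closest profiles (r = 0.86).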

How the data were processed

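The deposited values were UMI counts per gene and barcode, made by the authors with Cell Ranger 7.0.0 per the file headers, with mm10 as build per the submitters' processing notes, which also list deepTools and Juicer. Counts were whole numbers without scaling, 32285 genes in each of 4 libraries. The members, gene lists and tests were chosen with earlier results of these data known.

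A cell passed with 200 or more genes and no more than 10% mitochondrial UMIs (46886 of 53644), and 2083 doublets called per library with Scrublet in scanpy 1.11.5 were removed. The caller marked 1.03 to 6.41% of cells against 7.26 to 12.9% expected, so doublets remain, most in Smc3-WT replicate 1. Clustering (2000 variable genes without the members, 30 components, Leiden resolution 1, no integration) gave 45 clusters. Of these, 36 were named from marker lists by a rule set after seeing the data (at least 3 markers and a share of 0.45 of the list), and 9 with 981 cells were left unnamed.

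Sums of raw counts over the cells of a class in each library were compared with edgeR 4.0.16 in R 4.3.3 (filterByExpr, TMM, quasi-likelihood F test, Benjamini-Hochberg within a class, threshold 0.05, genotype only). DESeq2 1.42.0 was an alternative. Shares have exact Clopper-Pearson intervals at 95%. The fit was tested on simulated data. Genes named were the members, genes of a list or neighbourhood past the threshold or among the 3 of highest level, and the 3 most alike per member. Abcb1b, Rundc3b and Slc12a2 were named after their values were seen. Replicate numbers were not taken to pair the libraries, since no label gives a pairing and 2 pairs do not show one. Erythroid markers in cDC2 and mitochondrial UMIs did follow the replicate number, so a fit with a replicate block is given as an alternative. Promoter windows and positions are RefSeq's on GRCm38.p6. Some genes are not reported here.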

Additional observations from a re-analysis of the deposited data

Results flagged for a closer look

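The order of the genotypes for Abcb1a in CD4 T and NK cells was opposite to that in cDC2. In CD4 T cells it was at 42.1 and 48.9 CPM in Smc3-cKO libraries, against 31.8 and 29.4 CPM in Smc3-WT libraries (log2 change 0.58). In NK cells it was at 52.7 and 58.3 CPM in Smc3-cKO libraries, against 46.0 and 48.7 CPM in Smc3-WT libraries (log2 change 0.23). In cDC2 both Smc3-cKO libraries were below both Smc3-WT libraries. In B cells, at 2.53 and 3.42 CPM in Smc3-cKO libraries, against 5.27 and 3.90 CPM in Smc3-WT libraries, it had the order of cDC2, and in CD8 T cells the genotypes overlapped. Both Smc3-cKO libraries thus lay above both Smc3-WT libraries in 2 cell types and below them in others. An order without overlap is common with 2 libraries per genotype. Both Smc3-cKO libraries were lower for 20.2% of all genes tested in cDC2 and for 12.97% in B cells. The share of all genes that were higher in both Smc3-cKO libraries was not determined for CD4 T or NK cells. The change in NK cells was smaller than its SE of 0.33. The difference between the cell types was not tested, because the cDC2 values chose the gene, and none of the lymphocyte changes passed the threshold by edgeR.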

How the results depend on the processing

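For the members in cDC, whose direction was fixed by their choice, 40 of 179 changes of 13 pairs of member and cDC class under the alternatives moved by more than 1 SE. Members lower in both Smc3-cKO libraries numbered 8 or 9 in cDC2, except for 4 in the Cd209a-led cluster alone. In cDC1 they numbered 9, but 8 under the stricter cell filter and when clustered without called genes, and 6 with the members kept among the clustering genes, at Leiden resolution 2 and with the gate on single cells. In all cDC they numbered 10, and 7 with the gate. With 2 libraries per genotype, numbers of called genes were not steady, and they often went up when a library was left out and the lone library was assumed to vary like the other genotype. They ranged over 0 to 772 in cDC2, 22 to 309 in cDC1, 137 to 956 in all cDC, 7 to 55 in pDC, 28 to 551 in classical monocytes, 1 to 74 in nonclassical monocytes, 0 to 54 in B, 0 to 38 in CD4 T, 0 to 166 in CD8 T and 2 to 44 in NK cells. They ranged over 0 to 11 listed genes, 0 to 9 neighbours and 1 to 2 member-class pairs. The causes of these and the following shifts were not tested.

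DESeq2 called 37 genes in cDC2, 6 in cDC1, 62 in all cDC, 15 in classical monocytes, 4 in B and 1 in CD8 T cells, and 1 member-class pair. Without a filter on low counts, 216 were called in cDC2, 52 in cDC1, 0 in all cDC, 17 in pDC, 188 in classical and 25 in nonclassical monocytes, 15 in B, 159 in CD4 T, 129 in CD8 T and 63 in NK cells, with 2 listed genes, 5 neighbours and 4 pairs. RLE scaling gave 2 in all cDC, 10 in classical monocytes and 1 pair. Leiden resolution 2 gave 82 in cDC2, 30 in cDC1, 65 in all cDC and 10 in classical monocytes, with 2 listed genes and 3 neighbours. With the members kept among the clustering genes, 55 were called in cDC2, 2 in cDC1, 38 in all cDC and 0 in classical monocytes, with 1 listed gene and 2 neighbours. A gate on single cells gave 9 in cDC1, 2 in all cDC, 1 in pDC and 0 in classical monocytes, and the stricter cell filter 8 in all cDC. Of the alternatives chosen after seeing the data, clustering without called genes gave 1 in cDC1 and 0 each in all cDC, classical and nonclassical monocytes. The Siglech-led cluster in cDC2 gave 28 in cDC2 and 31 in all cDC, and the class without the Retnla-led cluster 0 in classical monocytes. The Dscam-led clusters alone gave 1 gene and 0 neighbours in cDC2, and the Cd209a-led cluster alone 0 and 0.

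Same-numbered libraries correlated in their deviations at r = 0.06 to 0.60 over classes, and since 2 pairs do not show a pairing, the block is given here only. With a replicate block, 69 genes were called in cDC2, 100 in all cDC, 3 in pDC, 64 in classical and 4 in nonclassical monocytes, 9 in B, 1 in CD4 T, 3 in CD8 T and 19 in NK cells, with 3 neighbours and 2 pairs, Asb2 (adjusted p = 0.00635 by edgeR) and Rasgrp3 (0.0453) in classical monocytes.

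Small changes turned sign. That of Abcb1a in CD8 T cells ranged from -0.024 to 0.48 when a library was left out, being -0.0005943 without Smc3-cKO replicate 1. That of Ccdc192 in nonclassical monocytes ranged from -0.70 to 0.41 in this way, and was 0.11 under the stricter cell filter and 0.21 without Smc3-cKO replicate 2. That of Tgm2 there ranged from -0.047 to 1.43, and was -0.030 with the gate on single cells. The gate gave no cDC2 value, and the stricter filter none for pDC or classical monocytes. No unnamed cluster was closest to a cDC class, but the Siglech-led cluster, closest to pDC, had cDC2 markers among its leading genes. Of the 30 genes named as most alike, 17 remained with a pseudocount of 1 and 7 with Spearman's rho. Depth limits P3h2, Pcsk5, Tgm2 and Abcb1a most where they rest on under 10 UMIs.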

Other observations

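A cluster that was left unnamed, led by Cyp7b1, Cd209d and Siglech, held 29 and 59 cells in the Smc3-cKO libraries, against 8 and 21 in the Smc3-WT libraries. By the marker lists it was closest to pDC, and it was not named because its leading genes held cDC2 markers beside pDC markers. Counting it among cDC2, a choice made after seeing the data, made each change of the 8 genes measured in cDC2 larger in size. Ffar2 then changed by -2.43 (SE 0.26), Rasgrp3 by -2.90 (SE 0.32), Ccdc192 by -2.88 (SE 0.28) and Nod1 by -1.22 (SE 0.30). When genes called in cDC were kept out of clustering as well, the range over the 8 genes was -3.04 for Rasgrp3 to -1.04 for Nod1.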
